A study of Mus musculus with 12 samples.

Results

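The effect of losing the stress kinases JNK1 and JNK2 was examined in detached epithelial cells, by comparing JNK-deficient with control cells after 4 hours in suspension. The genes described are the 12337 of 31026 table entries with at least 1 FPKM in either suspended group (FPKM are fragment counts scaled for transcript length and library size). Of these, 12310 were tested and 27 were not, as the p-values of the authors' deposited table show. At the edge of this threshold, Scn3b was just inside at 1.0002 FPKM in its higher group and Mmp28 just outside at 0.99973 FPKM. For 730 entries the other group was under 1 FPKM, so that these entered through their higher group alone.

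The cells were cultured kidney epithelial cells of C57BL/6 mice, with 3 samples in each of 4 groups. Controls carried Rosa-CreER, and JNK-deficient cells were Jnk1flox/flox Jnk2-/- Rosa-CreER, labelled Jnk1-/- Jnk2-/-, so both genotypes carried the inducible Cre. Each genotype was sampled attached and after 4 hours of suspension, and the sources used here do not give the agent or time used to induce Cre, or whether samples of a group were separate cultures. The tables hold 1 FPKM value per group and the authors' p- and q-values, with no value per sample, so no SD between samples can be given and depth is unknown.

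JNK is a mitogen-activated protein kinase switched on by stress, cytokines and loss of matrix contact. It phosphorylates Jun and related AP-1 transcription factors, which bind TGANTCA or CRE-like sites, and it also acts directly on proteins of the cell death machinery. Death of epithelial cells that lose their matrix is called anoikis, and BH3-only proteins, which act on the BCL-2 family at mitochondria, are among its executioners.

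In suspended cells, 1550 of the 12310 genes tested differed between genotypes at q < 0.05 by the authors' deposited table (12.6%). Of these, 706 were higher in JNK-deficient cells (5.74%) and 844 were lower (6.86%). This balance turned over among genes with at least 5 FPKM in either group, where 630 were higher and 602 lower. Differences of at least 2-fold were found in 170 genes higher (1.38%) and 365 lower (2.97%). The 365 depended on genes of low level: the count was 167 with at least 5 FPKM in either group, 222 with at least 1 FPKM in both and 206 with a pseudocount of 1 FPKM, against 118, 136 and 119 higher. At least 8-fold differences were found in 11 genes higher and 27 lower. The middle of the distribution stood near 0, with a median log2 fold of 0.0125 and quartiles of -0.22 and 0.20. The smallest q-value that the deposited p-values allow here was 0.00099, and 641 genes were at it. Genes at this lowest step cannot be ranked by q. All folds below are log2 of JNK-deficient over control FPKM.

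**Figure D1:**
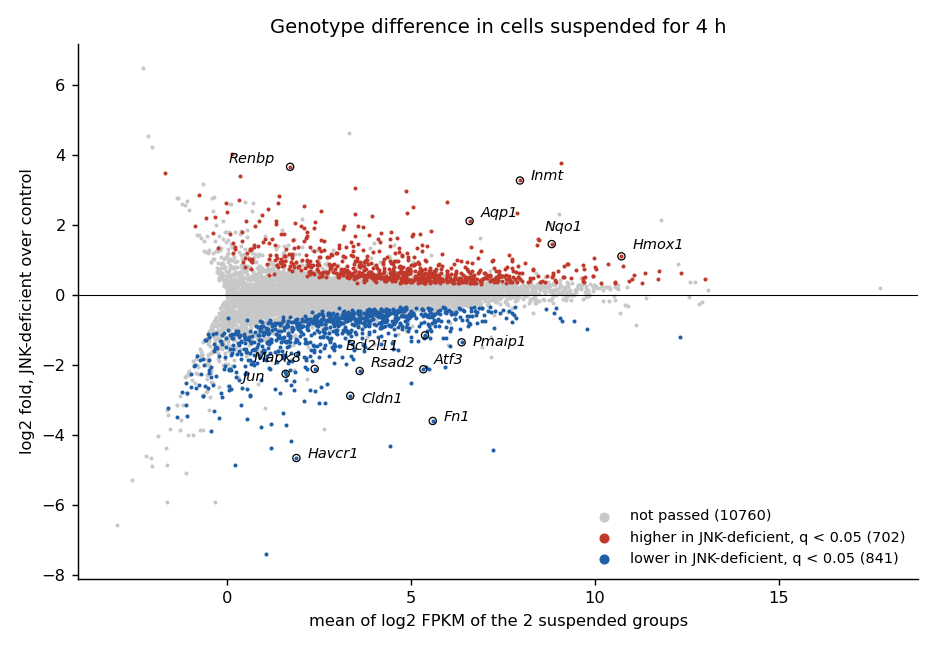
Log2 fold of JNK-deficient over control suspended cells (vertical axis) against the mean log2 FPKM of both suspended groups (horizontal axis), 1 point per gene with FPKM above 0 in both groups. Red and blue points passed q < 0.05 as higher and lower; Havcr1 (-4.66) and Fn1 (-3.60) lie far below 0, Inmt (3.28) and Aqp1 (2.12) far above it.

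The targeted genes came first as a check of the labels. Mapk8, which encodes JNK1 (chromosome 14, 33377899 to 33447158 on mm10), stood at 10.9 FPKM in suspended controls against 2.52 FPKM without JNK by the authors' deposited table (log2 fold -2.11, q = 0.00099). Mapk9, which encodes JNK2 (chromosome 11, 49846751 to 49886421), was at 29.2 and 17.4 FPKM (-0.74, q = 0.00099). Both were lower, as the genotype label says, and neither was at 0. FPKM here cover the whole gene, and the deleted exons alone were not analysed. Of 20 tested genes of the JNK pathway, 4 were lower and 0 higher (20%, against 12.6% of all genes). Mapk8 and Mapk9, which the genotype itself targets, are among these 4. The others that fell were Map3k5, which encodes the upstream kinase ASK1 (22.2 and 12.3 FPKM, -0.85), and Sh3rf1, which encodes the JNK scaffold POSH (37.0 and 24.0 FPKM, -0.62), each with q = 0.00099.

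Promoters were read from RefSeq (GRCm38.p6, 250 bases before to 50 after the start) and searched for AP-1 and CRE letters. The promoters of Jun, Dusp1 and Dusp8 are shown as genes that fell and hold such letters, and those of Rsad2 and Oas1a as interferon-induced genes that hold the response element named below. Other genes that fell do not: the promoters of Atf3, Cxcl3, Dusp16 and Bcl2l11 hold none of these AP-1 and CRE letters, and those of Oasl2, Cmpk2, Ifi44 and Irf7 hold no such element. Capitals mark TGACATCA in Jun (chr4:95052173-95052472, minus strand), TGACGTCA in Dusp1 (chr17:26508423-26508722, minus strand) and TGACGTCA at both places in Dusp8 (chr7:142095235-142095534, minus strand). In Rsad2 (chr12:26456403-26456702, minus strand) they mark the core of the interferon-stimulated response element (ISRE), a pair of GAAA separated by 2 bases, here read on the opposite strand, and TGANTCA. In Oas1a (chr5:120907476-120907775, minus strand) they mark a pair of overlapping ISRE cores.
Jun: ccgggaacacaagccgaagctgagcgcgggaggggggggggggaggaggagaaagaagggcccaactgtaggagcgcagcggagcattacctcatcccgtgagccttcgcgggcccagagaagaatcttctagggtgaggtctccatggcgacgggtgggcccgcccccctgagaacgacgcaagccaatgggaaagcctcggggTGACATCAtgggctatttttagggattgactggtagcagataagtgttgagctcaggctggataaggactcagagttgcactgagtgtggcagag
Dusp1: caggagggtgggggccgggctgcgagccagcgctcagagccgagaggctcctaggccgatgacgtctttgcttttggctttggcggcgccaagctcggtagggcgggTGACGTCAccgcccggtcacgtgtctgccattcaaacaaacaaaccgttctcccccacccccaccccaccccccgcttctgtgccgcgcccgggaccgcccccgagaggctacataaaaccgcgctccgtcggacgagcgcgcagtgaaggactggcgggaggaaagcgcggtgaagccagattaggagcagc
Dusp8: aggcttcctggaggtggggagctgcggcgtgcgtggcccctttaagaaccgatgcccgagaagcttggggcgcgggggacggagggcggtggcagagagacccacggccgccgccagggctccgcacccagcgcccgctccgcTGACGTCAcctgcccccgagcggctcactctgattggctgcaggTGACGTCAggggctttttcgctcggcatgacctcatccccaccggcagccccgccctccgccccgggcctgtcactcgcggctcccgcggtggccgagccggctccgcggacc
Rsad2: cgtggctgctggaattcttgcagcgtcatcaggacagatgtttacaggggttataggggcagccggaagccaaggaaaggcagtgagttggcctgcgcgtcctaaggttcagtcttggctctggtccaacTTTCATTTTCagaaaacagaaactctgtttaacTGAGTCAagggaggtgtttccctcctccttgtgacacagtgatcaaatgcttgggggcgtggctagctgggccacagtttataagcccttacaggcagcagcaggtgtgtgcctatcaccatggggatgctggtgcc
Oas1a: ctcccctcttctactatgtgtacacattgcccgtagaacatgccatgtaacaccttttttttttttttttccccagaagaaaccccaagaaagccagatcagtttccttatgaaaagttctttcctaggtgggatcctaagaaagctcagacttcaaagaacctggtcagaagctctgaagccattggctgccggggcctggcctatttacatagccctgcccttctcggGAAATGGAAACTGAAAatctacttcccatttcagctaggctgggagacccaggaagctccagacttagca

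The match in Jun starts 45 bases before the start site, that in Dusp1 143 bases before it, and those in Dusp8 107 and 63 bases before it. In Rsad2 the ISRE core starts 120 bases and the TGANTCA match 87 bases before the start. In Oas1a the ISRE cores start 20 and 14 bases before it. On either strand, TGANTCA stood in 9.55% of 335 promoters of genes at least 2-fold lower, in 10.9% of 137 promoters of genes at least 2-fold higher and in 5.35% of 10957 promoters of all genes kept. TGACGTCA stood in 2.09%, 1.46% and 3.05% of the same sets, and TGACATCA in 3.28%, 1.46% and 1.82%. The ISRE core, searched after the values were seen, stood in 5.37%, 0.73% and 2.8%, and in 5 of 16 promoters of the interferon-induced genes that were lower (31.2%). It was not confined to genes that fell. The promoters of Isg15, Ifit1, Ifit3 and Gbp2, interferon-induced genes that did not pass, also hold the core. Those of Irf1, which did not pass either, hold none. Among all 32851 promoters of the table, the shares were 7.81%, 1.79%, 3.62% and 3.44% for the 4 motifs in the order given. RefSeq promoters were found for 8494 of 12047 kept gene symbols. These letters describe the sequence and were not tested as binding sites.

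The products of AP-1 genes pair to form the transcription factors that JNK phosphorylates. Of 15 tested, 4 were lower and 1 was higher in JNK-deficient suspended cells (33.3%, against 12.6% of all genes). Jun (chromosome 4, 95049036 to 95052222) stood at 6.60 FPKM in suspended controls against 1.39 FPKM without JNK by the authors' deposited table (-2.25, q = 0.00099). Atf3, a stress-induced partner of Jun (chromosome 1, 191170297 to 191218039), was at 84.5 and 19.4 FPKM (-2.12, q = 0.00099). Jund was at 32.4 and 16.6 FPKM (-0.97) and the small Maf gene Maff at 26.9 and 14.5 FPKM (-0.89), both with q = 0.00099. Most other members of the family did not pass. Junb was at 3.22 and 3.29 FPKM (0.03, q = 0.98), Fos at 2.52 and 2.32 FPKM (-0.12, q = 0.884) and Fosb at 3.34 and 3.15 FPKM (-0.08, q = 0.902). Fosl2 (-0.27, q = 0.167), Maf (-0.55, q = 0.25), Atf2, a direct JNK substrate (0.22, q = 0.318), and Atf7, on an entry it shares with Npff (0.27, q = 0.343), did not pass. Jdp2 (-0.10), Mafg (0.06) and Mafk (0.06) also did not pass, and Fosl1, Batf, Batf2 and Batf3 were under 1 FPKM in both groups.

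Several genes of the negative feedback on MAP kinases were lower. Of 9 tested dual-specificity phosphatase genes, whose products remove phosphate from MAP kinases, 4 were lower and 0 higher (44.4%, against 12.6% of all genes). Dusp8 (chromosome 7, 142079487 to 142095284), a phosphatase of JNK and p38, stood at 10.5 FPKM in suspended controls against 0.503 FPKM without JNK by the authors' deposited table (-4.38, q = 0.00099). Dusp1 (chromosome 17, 26505591 to 26508472) was at 94.4 and 21.8 FPKM (-2.12), Dusp16 at 38.9 and 13.5 FPKM (-1.53) and Dusp10 at 35.7 and 13.8 FPKM (-1.37), each with q = 0.00099. Dusp4 (96.6 and 88.8 FPKM, q = 0.638), Dusp6 (7.03 and 6.25 FPKM, q = 0.724) and Dusp5 (3.88 and 5.73 FPKM, q = 0.303) did not pass, nor did Dusp7 and Dusp14. Among 19 other immediate early genes, 7 were lower and 2 higher (47.4%), while the median fold of the list was 0.09. Btg2, an antiproliferative gene, was at 70.2 and 30.1 FPKM (-1.22), Ier3 at 130.7 and 73.7 FPKM (-0.83), Nr4a1 at -0.89 (q = 0.0186) and Gadd45a at -0.73 (q = 0.00942). Egr1, a zinc finger factor induced through ERK, went the other way, from 17.9 to 35.5 FPKM (0.99, q = 0.00099), as did Klf4 (0.64, q = 0.0147).

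Of 7 tested BH3-only genes, 3 were lower in JNK-deficient suspended cells and 0 were higher (42.9%, against 12.6% of all genes). Bcl2l11, which encodes Bim (chromosome 2, 128126038 to 128162547), stood at 62.3 FPKM in suspended controls against 28.0 FPKM without JNK by the authors' deposited table (-1.15, q = 0.00099). Pmaip1, which encodes Noxa (chromosome 18, 66458604 to 66465558), was at 133.2 and 52.2 FPKM (-1.35, q = 0.00099). Bik was at 8.39 and 3.11 FPKM (-1.43, q = 0.00887). Bmf, whose protein is held on the cytoskeleton in attached cells, was at 15.02 and 13.97 FPKM, a fold of -0.10 that did not pass (q = 0.766). Bid (77.2 and 82.8 FPKM, q = 0.729), Bad (10.2 and 15.5 FPKM, q = 0.263) and Bbc3, which encodes Puma (3.90 and 2.94 FPKM, q = 0.436), did not pass either. Hrk was under 1 FPKM in both groups and was not tested. In attached cells 4 of the 7 were lower and 1 was higher, where 14% of all genes were lower and 14.5% higher. The folds there were -0.80 for Bcl2l11, -0.83 for Pmaip1 and -0.55 for Bik, each with q = 0.000347, -0.32 for Bbc3 (q = 0.00503) and 0.48 for Bad (q = 0.00152). The difference between the suspended and attached folds did not pass for Bcl2l11, Pmaip1 or Bik (adjusted p = 0.829, 0.719 and 0.433, z-test described in the account of attached cells).

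Other death genes passed in small numbers. Of the remaining BCL-2 family, 1 of 7 was higher and 1 lower: Bok, a pro-apoptotic member, was at 16.6 and 32.6 FPKM (0.97), and Bcl2l1, which encodes the survival protein Bcl-xL, at 67.3 and 45.9 FPKM by the authors' deposited table (-0.55), both with q = 0.00099. Of 17 caspases and caspase inhibitors, 2 were lower (11.8%, against 12.6% of all genes), Apaf1, the scaffold of the apoptosome (19.3 and 13.6 FPKM, -0.50, q = 0.00331), and Casp1, the inflammasome caspase (1.97 and 0.462 FPKM, -2.10, q = 0.0312). Cflar, which encodes the caspase-8 inhibitor FLIP, was the 1 of 13 death receptor genes that passed (7.69%), at 29.5 and 19.0 FPKM (-0.64, q = 0.004). Bok, Bcl2l1, Apaf1, Casp1 and Cflar were named after their values were seen.

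**Figure D2:**
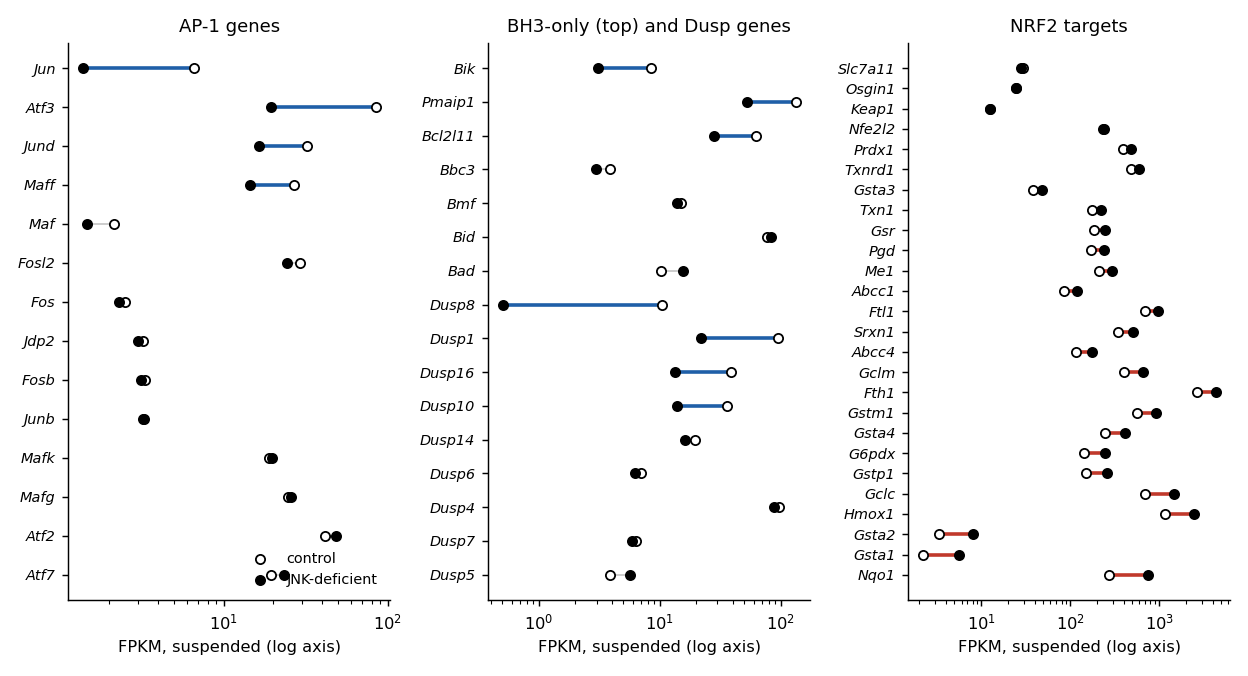
FPKM in suspended control cells (open circles) and JNK-deficient cells (filled circles), log axes, for kept AP-1, BH3-only, dual-specificity phosphatase and NRF2 target genes. Each value is the authors' group value with no error available; blue and red lines mark genes lower and higher at q < 0.05, so that Jun, Atf3, Bcl2l11, Pmaip1 and Dusp1 run left and Nqo1, Hmox1 and Gclc run right.

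FOXO and insulin signalling genes were lower in 6 and higher in 1 of 15 tested (46.7%, against 12.6% of all genes). Pik3ip1, an inhibitor of PI3 kinase, was at 57.3 and 23.1 FPKM (-1.31, q = 0.0147), and Sesn3, a FOXO target, at 62.8 and 30.4 FPKM by the authors' deposited table (-1.04, q = 0.00099). Foxo3 itself was at 19.8 and 12.4 FPKM (-0.68, q = 0.00182). Igfbp3 fell (-0.75, q = 0.0312), and Igfbp1 was the member that rose, at 1.71 and 3.77 FPKM (1.14, q = 0.0327).

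Interferon-induced genes, which encode antiviral proteins and their regulators, were the list with the largest share of falls among those plotted. Of 28 tested, 19 were lower in JNK-deficient suspended cells and 0 were higher, with a median log2 fold of -0.72 against 0.0125 over all genes tested. Among all genes tested, 6.86% were lower. Rsad2, which encodes viperin (chromosome 12, 26442743 to 26456452), stood at 25.9 FPKM in suspended controls against 5.74 FPKM without JNK by the authors' deposited table (-2.17, q = 0.00099). Usp18, which restrains interferon receptor signalling, was at 18.9 and 4.79 FPKM (-1.98), Dhx58 at 3.82 and 1.07 FPKM (-1.84) and Oasl2 at 10.4 and 3.05 FPKM (-1.78), each with q = 0.00099. Oas1a, whose product makes the messenger that activates RNase L, was at 10.1 and 3.32 FPKM (-1.61, q = 0.00099). The transcription factors of the response fell by less, Irf7 by 0.80, Irf9 by 0.55 and Stat2 by 0.54 on the log2 scale. Irf1 (-0.06, q = 0.875), Gbp2 (-0.04, q = 0.911) and Ifit3 (-0.18, q = 0.421) did not pass. Isg15 (-0.65, q = 0.117) and Ifit1 (-0.55, q = 0.151) did not pass either.

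In attached cells, 6 of these 28 genes were higher and 2 lower in JNK-deficient cells, with a median of 0.10, where 14.5% of all genes were higher and 14% lower. Rsad2 was at 15.2 and 14.0 FPKM in attached cells by the authors' deposited table (-0.11, q = 0.389), and Oasl2 at 6.09 and 6.15 FPKM (0.01, q = 0.945). The difference between the suspended and attached genotype effects passed for 11 of the 28, all more negative in suspension. It was -2.06 for Rsad2 (adjusted p = 0.0193), -1.75 for Usp18 (0.0362), -1.79 for Oasl2 (0.0114) and -1.46 for Oas1a (0.0325). Rtp4 (-1.72, adjusted p = 0.00197), Ifi44 (-1.51, 0.00821), Cmpk2 (-1.39, 0.00131), Gbp3 (-1.02, 0.00758), Irf7 (-0.98, 0.00506), Ifit2 (-0.63, 0.0162) and Ifit3 (-0.63, 0.0202) made up the rest. With standard errors taken through the suspension tables, Cmpk2, Gbp3, Irf7, Ifit2 and Ifit3 no longer passed (adjusted p = 0.4, 0.129, 0.575, 0.804 and 1). Each genotype's own response to suspension, which shares these libraries, was a log2 fold of 0.66 in control and -1.37 in JNK-deficient cells for Rsad2, 0.12 and -1.30 for Oas1a and 0.10 and -1.59 for Rtp4.

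**Figure D3:**
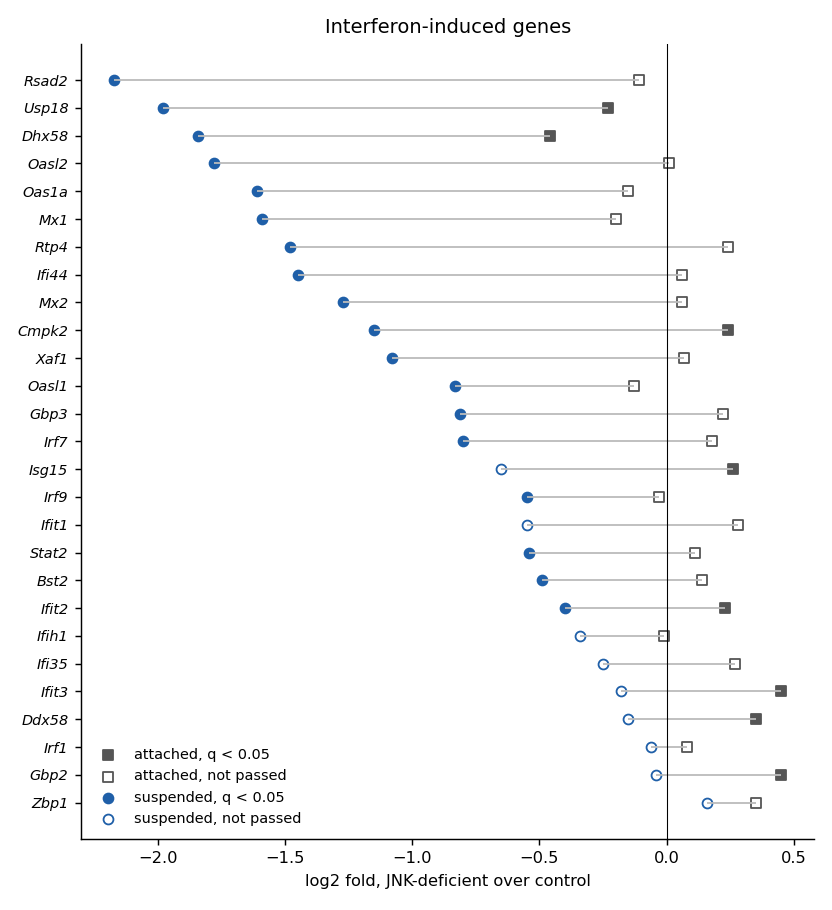
Log2 fold of JNK-deficient over control for kept interferon-induced genes, in suspended cells (circles) and attached cells (squares); filled symbols passed q < 0.05. Suspended folds run from -2.17 (Rsad2) to 0.16 (Zbp1), while attached folds lie between -0.46 (Dhx58) and 0.45 (Ifit3 and Gbp2).

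Leukocyte markers were examined beside the interferon result. Of 8 in the table, 4 were under 1 FPKM in both groups, and the summed level was 72.1 FPKM in suspended controls and 82.5 FPKM without JNK. Ptprc, which encodes CD45, was at 9.07 and 11.3 FPKM (q = 0.196) by the authors' deposited table, Csf1r was higher in JNK-deficient cells at 3.94 and 8.37 FPKM (q = 0.00099), and Cd3e, which encodes a T cell receptor subunit, was at 0.0291 FPKM in control cells and listed at 0 in JNK-deficient cells. The part of leukocytes in the interferon values was not tested. In such bulk RNA, fewer cells of a type and less RNA per cell cannot be told apart.

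Antigen presentation genes were lower in 3 of 11 (27.3%, against 12.6% of all genes). Among them was B2m, the light chain of class I molecules, at 270.3 and 181.7 FPKM by the authors' deposited table (-0.57, q = 0.00257). Tap1, a subunit of the peptide transporter, was at 15.9 and 11.2 FPKM (-0.50, q = 0.0279), and Nlrc5, a class I transactivator, at 1.03 and 0.425 FPKM (-1.28, q = 0.0452). The B2m effect was more negative in suspension than in attachment (difference -0.75, adjusted p = 0.0053).

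Chemokine and cytokine genes were lower in 7 and higher in 1 of 17 (47.1%, against 12.6% of all genes). Cxcl3, a neutrophil attractant (chromosome 5, 90786103 to 90788090), stood at 8.23 FPKM in suspended controls against 0.632 FPKM without JNK (-3.70, q = 0.00099), and at 0.832 and 1.35 FPKM in attached cells (0.69, q = 0.0145) by the authors' deposited tables. The difference of these effects was -4.40 (adjusted p = 0.0014). Ccl5, a T cell attractant, was at 43.1 and 14.4 FPKM (-1.58, q = 0.00099), Il18 at 6.43 and 1.39 FPKM (-2.21, q = 0.00593) and Cxcl2 at 8.79 and 4.49 FPKM (-0.97, q = 0.0261). Cxcl5, a neutrophil attractant like Cxcl3, was the member that rose, at 11.9 and 20.6 FPKM (0.79, q = 0.00182). The chemokine gene Ppbp, which is not on this list, also rose, at 200.5 and 608.6 FPKM (1.60, q = 0.00099). Ccl20, named after its values were seen, was lower in suspension (30.7 and 17.4 FPKM, q = 0.0104) and higher in attachment (45.7 and 139.5 FPKM, q = 0.000347), a difference of -2.42 (adjusted p = 0.000199).

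NF-kB genes showed 2 falls and 0 rises among 14, a share of 14.3% against 12.6% of all genes. Both were targets of the pathway, named after their values were seen. Icam1, a leukocyte adhesion molecule, was at 14.8 and 3.86 FPKM by the authors' deposited table (-1.94, q = 0.00099) and Nfkbia, the feedback inhibitor, at 25.1 and 16.5 FPKM (-0.60, q = 0.0133). Both were higher in attached JNK-deficient cells (0.49 and 0.35), and the differences passed (-2.43, adjusted p = 0.000545, and -0.95, adjusted p = 0.00186). Vcam1 was at -0.47 in suspension (q = 0.094) and 1.41 in attachment (q = 0.000347), a difference of -1.89 (adjusted p = 0.00119). With standard errors from the suspension tables, the differences of Icam1, Nfkbia, Vcam1 and Ccl20 did not pass (adjusted p = 0.0667, 0.125, 1 and 0.136).

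Targets of NRF2, the transcription factor of the antioxidant and detoxification response, were higher in 18 and lower in 0 of 26, with a median log2 fold of 0.52. Of all genes tested, 5.74% were higher and 6.86% lower. Nqo1, a quinone reductase (chromosome 8, 107388225 to 107403205), stood at 274.1 FPKM in suspended controls against 756.3 FPKM without JNK by the authors' deposited table (1.46, q = 0.00099). Hmox1, heme oxygenase (chromosome 8, 75093618 to 75100593), was at 1153 and 2486 FPKM (1.11), and Gclc, which limits glutathione synthesis (chromosome 9, 77754535 to 77794489), at 700.5 and 1456 FPKM (1.06), both with q = 0.00099. Gsta2 (1.25, q = 0.0186) and Gsta1, on an entry it shares with Gm3776 (1.36, q = 0.0446), rose from lower levels, and reads of such near-identical glutathione transferase genes may be split between copies. The regulators did not pass: Nfe2l2, which encodes NRF2, was at 232.1 and 242.7 FPKM (0.06, q = 0.83), and Keap1, its inhibitor, at 12.6 and 12.7 FPKM (0.00, q = 0.994). Txnrd1 (0.31, q = 0.299), Slc7a11, on an entry it shares with AK089283 (-0.07, q = 0.821), and Osgin1 (-0.03, q = 0.951) did not pass. In attached cells 16 of 24 were higher and 1 lower, where 14.5% of all genes were higher and 14% lower. The folds there were 1.53 for Nqo1, 1.09 for Hmox1 and 1.21 for Gclc. Levels of Hmox1 were far lower in attachment, at 29.0 and 61.9 FPKM in a table scaled separately.

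Iron genes, some of them also on the NRF2 list, were higher in 7 and lower in 1 of 12 (66.7%, against 12.6% of all genes). Fth1, the ferritin heavy chain, was at 2681 and 4341 FPKM by the authors' deposited table (0.70), Lcn2, an iron carrier and injury marker, at 200.4 and 377.8 FPKM (0.91), and Tfrc, the transferrin receptor, at 25.3 and 39.4 FPKM (0.64), each with q = 0.00099. Steap3, an iron reductase, was lower (11.3 and 5.38 FPKM, -1.07, q = 0.00099). Other detoxification genes stood among the most abundant genes that differed by at least 2-fold. Gstm2 was at 205.3 and 618.1 FPKM (1.59) and Akr1b8 at 208.1 and 564.9 FPKM (1.44). The platelet chemokine gene Ppbp, of the same group by level, was at 200.5 and 608.6 FPKM (1.60).

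Of 31 unfolded protein and integrated stress response genes, 8 were higher and 4 lower (38.7%, against 12.6% of all genes). The rises included the chaperones Hspa5, which encodes BiP (250.4 and 409.3 FPKM, 0.71), and Hsp90b1 (210.5 and 325.8 FPKM, 0.63), the factor Xbp1 (0.63) and the serine synthesis gene Psat1 (53.8 and 108.2 FPKM, 1.01), each with q = 0.00099 by the authors' deposited table. The falls were Herpud1 (-0.62, q = 0.00099), Ddit3, which encodes CHOP (154.4 and 103.4 FPKM, -0.58, q = 0.0197), Ppp1r15a (-0.53, q = 0.0283) and Ern1, which encodes the sensor IRE1 (-0.44, q = 0.0337). In attached cells 16 of the 31 were higher and 0 lower, where 14.5% of all genes were higher and 14% lower. Only the difference of Herpud1 passed (-1.09, adjusted p = 3.5e-05).

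Hypoxia and glycolysis genes were higher in 6 and lower in 3 of 28 (32.1%, against 12.6% of all genes). Egln3, an oxygen-sensing hydroxylase, was at 1.76 and 7.31 FPKM (2.06) and Adm, which encodes adrenomedullin, at 25.7 and 61.0 FPKM by the authors' deposited table (1.25), both with q = 0.00099. Pfkl (0.57, q = 0.00331) and Ldha (0.41, q = 0.00533) also rose, and Ndrg1 (-0.78), P4ha2 (-0.92) and Pfkfb3 (-0.67) fell. For Pfkfb3, which sets the level of an activator of glycolysis, the suspended effect was more negative than the attached one (-1.08, adjusted p = 0.0001). Cholesterol genes were lower in 4 and higher in 0 of 23 (17.4%, against 12.6% of all genes), with a median log2 fold of -0.07. Among those lower were Dhcr7 (-1.33) and Insig1 (52.9 and 31.2 FPKM, -0.76). In attached cells 10 of the 23 were higher and 2 lower, with a median of 0.19. There 14.5% of all genes were higher and 14% lower.

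Genes of kidney tubule identity were higher in 6 and lower in 0 of 12 tested (50%, against 12.6% of all genes). Aqp1, the water channel of the proximal tubule (chromosome 6, 55336299 to 55348555), stood at 46.4 FPKM in suspended controls against 202.2 FPKM without JNK by the authors' deposited table (2.12, q = 0.00099). Umod, which encodes uromodulin, was at 0.389 and 4.17 FPKM (3.42), and passed the FPKM threshold through the JNK-deficient group alone. Fxyd2, a regulator of the sodium pump, was at 774.7 and 1353 FPKM (0.80), Atp6v0d2, a proton pump subunit, at 5.27 and 12.1 FPKM (1.20), and the cadherin gene Cdh16 at 377.4 and 545.0 FPKM (0.53, q = 0.00182). Atp6v0d2 was near 0 in attached cells, at 0.00949 FPKM in controls and 0.0452 FPKM without JNK. Pax2 (0.25, q = 0.409) and Pax8 (-0.35, q = 0.0737), transcription factors of the kidney lineage, did not pass. The transporter and channel genes Slc34a1, Slc5a2 and Aqp2 of mature tubules were listed at 0 in both suspended groups.

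Kidney injury genes were divided, 5 higher and 5 lower of 13 (76.9%, against 12.6% of all genes). Havcr1, which encodes the injury marker KIM-1 (chromosome 11, 46740223 to 46779578), stood at 18.6 FPKM in suspended controls against 0.735 FPKM without JNK by the authors' deposited table (-4.66, q = 0.00099), the largest fall among the named genes other than Fbln2. Clu, which encodes clusterin, was at 110.3 and 40.0 FPKM (-1.46), Cyr61 at 13.8 and 6.71 FPKM (-1.04) and Cd44 at 101.2 and 65.6 FPKM (-0.63). On the other side stood Krt20 (11.7 and 41.2 FPKM, 1.82), Lcn2, Igfbp7 (971.0 and 1806 FPKM, 0.90) and S100a6 (4134 and 6449 FPKM, 0.64). Each of these had q = 0.00099.

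Matrix genes were higher in 8 and lower in 4 of 24 (50%, against 12.6% of all genes). The falls were the steeper, and the median fold of the list was -0.24. Fn1, which encodes fibronectin (chromosome 1, 71585523 to 71662843), stood at 168.1 FPKM in suspended controls against 13.9 FPKM without JNK by the authors' deposited table (-3.60, q = 0.00099). Fbln2, a fibulin, was at 6.25 and 0.214 FPKM (-4.87), Tnc, tenascin C, at 1.53 and 0.329 FPKM (-2.22), and Nid1, a basement membrane linker, at 16.2 and 4.79 FPKM (-1.76), each with q = 0.00099. Of the 24 matrix genes, 5 were under 1 FPKM in their lower group. Fbln2 and Tnc were among them and passed the FPKM threshold through the control group alone. The type IV collagen genes Col4a3 (6.23 and 19.9 FPKM, 1.68) and Col4a4 (6.67 and 17.6 FPKM, 1.40), which lie side by side on chromosome 1, rose, as did Sparc (1.37) and Col8a1 (0.88). Of 7 fibroblast markers, 6 were under 1 FPKM in both groups. The remaining one, Pdgfra, was at 3.041 and 1.495 FPKM (q = 0.0435). The summed fibroblast level was 3.39 and 1.62 FPKM, and its part in the matrix values was not tested.

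Adhesion genes also moved both ways. Of 26 junction genes, 4 were higher and 4 lower (30.8%, against 12.6% of all genes). Cldn1, a sealing claudin (chromosome 16, 26356646 to 26371839), was at 27.7 and 3.77 FPKM by the authors' deposited table (-2.88), Cdh3, P-cadherin, at 19.6 and 8.26 FPKM (-1.24), Cdh2 at -0.54 and Cdh1, E-cadherin, at 205.0 and 143.5 FPKM (-0.51), each with q = 0.00099. Cldn10, a pore-forming claudin, was at 7.10 and 33.8 FPKM (2.25, q = 0.00099), and Cldn6 (1.61, q = 0.0133) and Cdh6 (0.64) also rose. Of 19 focal adhesion genes, 3 were higher and 5 lower (42.1%). Those higher were Cav1 (1.08), Fermt2 (0.69) and Vcl, vinculin (0.54). Among those lower were Fermt1 (-0.94), Zyx, zyxin (-0.92), Src (-0.59) and Ptk2b (-0.56). Of 18 matrix proteases and inhibitors, 6 were lower and 1 was higher (38.9%). Mmp10 (-1.85, q = 0.0114) and Adam8 (-1.21, q = 0.00099) fell.

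SRF targets and actin genes were lower in 6 and higher in 2 of 21 (38.1%, against 12.6% of all genes). Fhl1, a LIM protein, was at 6.99 and 0.509 FPKM by the authors' deposited table (-3.78, q = 0.00099), Acta2, smooth muscle actin, at 2.498 and 0.331 FPKM (-2.92, q = 0.00466) and Tpm1, a tropomyosin, at 717.9 and 429.7 FPKM (-0.74). Tpm2, another tropomyosin, rose from 2.53 to 10.9 FPKM (2.10). Acta2 was the member of this list whose effect differed from that in attached cells (-3.40, adjusted p = 0.00683). YAP targets were lower in 4 and higher in 1 of 25 (20%). The pair of matricellular genes on this list went apart. Ctgf was at 19.7 and 45.3 FPKM (1.20) and Cyr61 fell as given above.

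**Figure D4:**
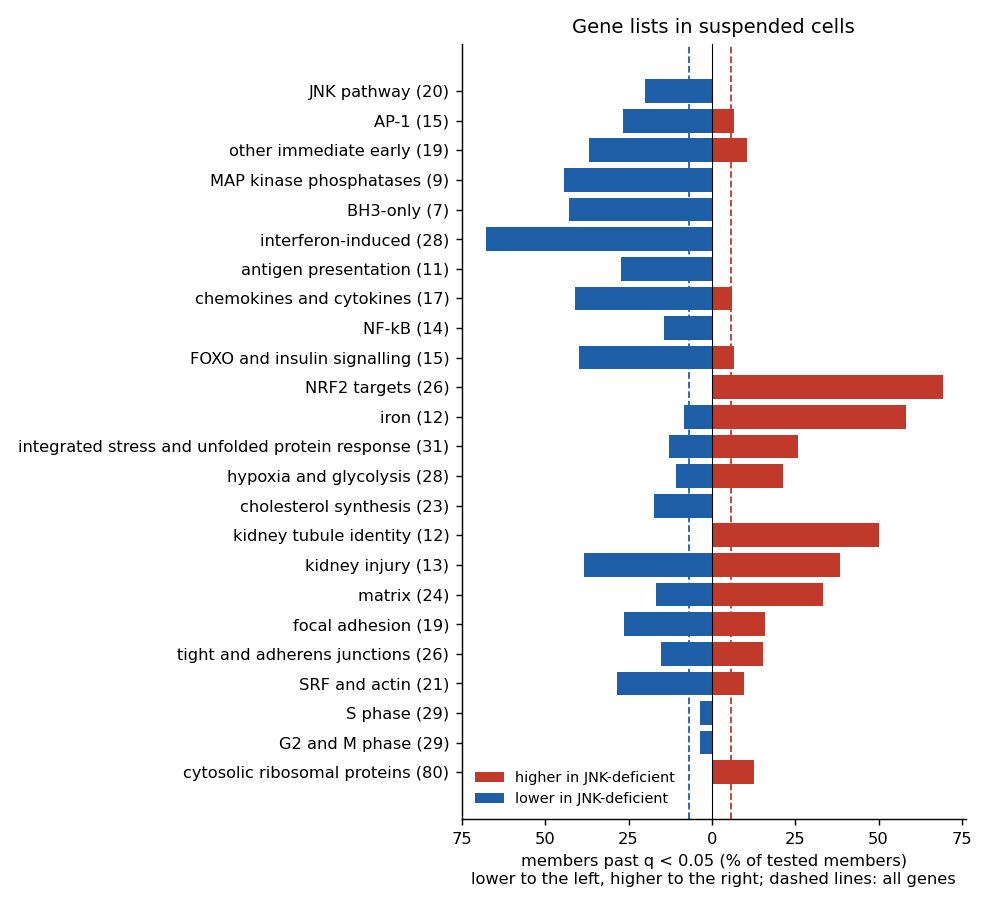
Share of the tested members of 24 gene lists (number tested in brackets) that were lower (blue, to the left) or higher (red, to the right) in JNK-deficient suspended cells at q < 0.05, in percent. Dashed lines give the shares of all genes, 6.86% lower and 5.74% higher; interferon-induced genes (19 of 28 lower) and NRF2 targets (18 of 26 higher) reach farthest.

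Of 29 S-phase genes 1 was lower and 0 higher in suspension, and the same counts held for 29 genes of G2 and M phase (3.45% each, against 6.86% of all genes lower). In attached cells 17 and 20 were lower, where 14% of all genes were. The median folds were -0.08 and -0.21 in suspension and -0.33 and -0.34 in attachment, and 24 of the 29 G2 and M folds in suspension were below 0. The difference of effects passed for 0 genes of either list, so a difference between suspension and attachment was not shown. With the trend on GC content and length removed, 3 S-phase genes were lower in suspension. The cytosolic ribosomal protein genes had 10 of 80 higher (12.5%) and 0 lower, led by Rps27 (0.63). The respiratory chain genes had 7 of 77 higher (9.09%), led by Ndufb8 (132.8 and 216.3 FPKM, 0.70) by the authors' deposited table. Of all genes, 5.74% were higher and 12.6% differed in either direction. After removal of the trend of folds on GC content and transcript length, 3 ribosomal and 1 respiratory chain gene remained higher and 1 ribosomal gene was lower; Rps27 no longer passed. Folds had a Spearman rho of -0.128 with GC content across genes, which are not independent replicates.

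The 15 largest rises, among genes reaching 5 FPKM in their higher group and 0.5 FPKM in their lower one, included enzymes and surface proteins. Inmt, an N-methyltransferase (chromosome 6, 55170627 to 55174990), stood at 80.2 FPKM in suspended controls against 781.0 FPKM without JNK by the authors' deposited table (3.28, q = 0.00099). Renbp, an amino sugar epimerase, was at 0.92 and 11.8 FPKM (3.67), Cyba, a subunit of NADPH oxidase, at 3.85 and 32.3 FPKM (3.07), and Upk3b, a uroplakin, at 10.4 and 82.7 FPKM (2.99). Psca, a surface antigen, was at 105.0 and 532.7 FPKM (2.34), Muc20, a mucin, at 25.2 and 160.9 FPKM (2.67), and Aldh1a1, which makes retinoic acid, at 4.96 and 24.8 FPKM (2.32). The phosphodiesterase gene Pde10a (2.85), Abp1 (2.63), Lpcat2 (2.56), Herc3 (2.53), the cysteine dioxygenase gene Cdo1 (2.47), Gdpd3 (2.42) and the sulfotransferase gene Sult1d1 (2.34) made up the rest with R3hdm2. All had q = 0.00099, and all were also higher in attached cells at q < 0.05.

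Besides Havcr1, Dusp8, Fhl1, Cxcl3, Fn1 and Cldn1, the 15 largest falls held genes of varied function. Tbc1d9 was at 16.4 and 1.93 FPKM by the authors' deposited table (-3.08), Calcb, a calcitonin-related peptide gene, at 18.4 and 2.16 FPKM (-3.09), and Cd40, a TNF receptor family member, at 12.3 and 1.86 FPKM (-2.72). Pdlim1 (-2.74), Mapk4 (-2.68) and Nkain1 (-2.63) followed. Dtx3 (706.3 and 32.5 FPKM, -4.44), Nckipsd (97.0 and 4.90 FPKM, -4.31) and R3hdm2 (145.8 and 2002 FPKM, 3.78) combined large folds with high levels. In attached cells they were at 36.8 and 43.5, 22.4 and 18.3, and 63.8 and 76.7 FPKM. The difference of effects passed for Dtx3 and R3hdm2 (adjusted p = 0.00593 and 0.0209), the latter not by the standard errors of the suspension tables (0.173), and did not pass for Nckipsd (-4.02, adjusted p = 0.159). The table lists Dtx3 on the same locus as Pip4k2c, Ddx5 as Ccdc45 and Herc3 as Nap1l5. How reads were assigned to these genes, or to Nckipsd and R3hdm2, was not tested. Nor was it for other genes named, such as Pik3ip1, whose locus runs from 3202353 to 3479831 on chromosome 11.

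The genotype effect in suspension was then set beside that in attached cells, a comparison that shares no samples with it. Among the same entries, 3416 of 11989 tested genes differed in attached cells (28.5%), so more genes passed there. Of 686 genes higher in suspension and tested in both, 501 (73%) were also higher in attached cells and 1 was lower. Of 794 genes lower in suspension, 542 (68.3%) were also lower and 32 (4.03%) were higher. Across 11970 genes the folds correlated with Pearson's r of 0.63 and a Spearman rho of 0.524, which is a description over genes that share their libraries. Of the 1477 genes that passed in suspension and had a fold in attached cells, 1342 had the same sign in both. Jun (-2.25 and -2.18), Fn1 (-3.60 and -2.96), Havcr1 (-4.66 and -3.99) and Inmt (3.28 and 3.14) had the same sign in suspended and attached cells. Their p-values are at the lowest step in both tables, so the standard errors of their differences (0.77, 1.1, 1.5 and 1.1) are upper bounds, and the z-test says little about whether the effects were equal.

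The difference of these effects was tested for each gene with a z-test, whose standard errors were read from the deposited p-values, adjusted by Benjamini-Hochberg over 11213 genes. It passed for 153 genes (1.36%), of which 30 were more positive and 123 more negative in suspension. The median standard error of a difference was 0.221 on the log2 scale, so smaller differences were often not detectable. Ddx5, an RNA helicase gene and the most abundant of those that differed by at least 2-fold, was at 7836 and 3378 FPKM in suspension (-1.21, q = 0.00099) and at 321.9 and 938.6 FPKM in attachment (1.54, q = 0.000347) by the authors' deposited tables, a difference of -2.76 (adjusted p = 3.5e-05). Setd4, a methyltransferase gene, was at 1.83 and 17.0 FPKM in attachment (q = 0.000347) and 3.02 and 2.28 FPKM in suspension (q = 0.537), a difference of -3.62 (adjusted p = 0.0059). Gja1, which encodes connexin 43, was lower in attached JNK-deficient cells (-0.76, q = 0.000347) and at 0.28 in suspension (q = 0.198), a difference of 1.04 (adjusted p = 0.00271). Ptgr1, a prostaglandin reductase, was lower in attachment (-0.90) and higher in suspension (1.13), a difference of 2.03 (adjusted p = 3.5e-05). By the standard errors of the suspension tables, the difference passed for 102 genes, 64 of them among the 153, and Ddx5 (adjusted p = 0.557) and Ptgr1 (0.689) did not.

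**Figure D5:**
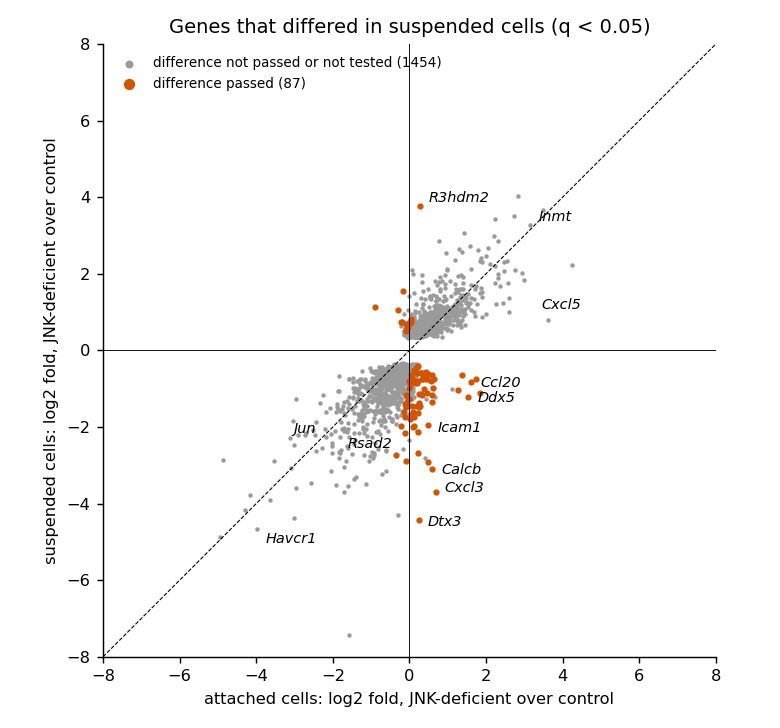
Log2 fold of JNK-deficient over control in suspended cells (vertical axis) against attached cells (horizontal axis) for genes that passed q < 0.05 in suspension; the dashed line marks equal folds. The 87 orange genes passed the test of the difference, most of them below the line, such as Cxcl3 (-3.70 against 0.69), while Jun, Havcr1 and Inmt lie near it.

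The label of kidney epithelial cells was set against marker genes. All 6 epithelial markers were kept, with Cdh1 lower as given above and Epcam (205.8 and 236.3 FPKM), Krt8 (539.2 and 577.1 FPKM) and Krt18 (673.6 and 686.5 FPKM) not passing by the authors' deposited table. All 4 kidney tubule markers were kept, while 13 genes of the longer list of tubule identity were under 1 FPKM in both groups. Leukocyte markers were present, with the sums of 72.1 and 82.5 FPKM given above. Most of both sums came from other kept markers, not from Ptprc or Csf1r. Whether those markers are specific to leukocytes in this culture was not tested. Of the endothelial markers 5 of 6 were under 1 FPKM in both groups, as were 3 of 5 podocyte markers. The podocyte list summed to 36.3 and 19.4 FPKM, most of it from Synpo (26.3 and 11.3 FPKM, -1.21, q = 0.00099), while Nphs1, which encodes nephrin, was at 0.0556 FPKM in control cells. The part of these cells in the results was not tested.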

How the data were processed

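Messenger RNA libraries from 12 samples, 3 in each of 4 groups, were sequenced on an Illumina HiSeq instrument, per the labels' protocols. Per the submitters' processing notes, reads were handled with Bowtie, TopHat, Cuffdiff and Cufflinks 1.0.3 on the build mm10; other versions and the annotation were not given in the sources used here. As deposited by the authors, the data are 4 tables of pairwise comparisons, each with 1 FPKM value per group, a p-value and a q-value per entry. Depth per sample is unknown. The p-values measure the spread between samples that may be technical replicates.

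Entries with at least 1 FPKM in either suspended group were kept, and log2 folds were computed from the FPKM values with no pseudocount; the deposited log2 ratio column was not used. A gene was called at a deposited q below 0.05, since values per sample, for which limma had been planned, were not at hand. A standard error was taken as the fold's size over the normal score of its p-value (p up to 0.95), an upper bound at the lowest p, and effects were compared by z-test with Benjamini-Hochberg adjustment. This was tested on simulated data, with spreads taken from genes above the lowest p in both genotype comparisons. Genes at the lowest p in either were left out of it, and its outcome is not given here. GC content and length were known for 94.4% of single-symbol entries. Positions count from 1 on mm10. Promoters came from RefSeq GRCm38.p6.

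The members and gene lists were chosen with earlier results of these data known. Genes named were Mapk8 and Mapk9, all AP-1 and BH3-only genes, the 15 largest rises and falls (reaching 5 FPKM in one group and 0.5 FPKM in the other, without entries of several symbols, predicted genes, pseudogenes or small RNAs), the 10 most abundant with at least 2-fold differences, up to 4 per direction from lists with at least 3 calls, and the 5 largest differences of effects per direction; others are said to be named after their values were seen, or illustrate members that did not pass, list counts, markers or differences. Some genes that these rules name are counted in their lists but not reported here. Python 3.11.15, pandas 2.3.3, NumPy 2.4.6, SciPy 1.17.1 and statsmodels 0.14.6 were used. Alternatives covered the FPKM minimum, q threshold, adjustment, centring, GC and length, pseudocount and the source of standard errors.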

Additional observations from a re-analysis of the deposited data

Results flagged for a closer look

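Among the genes named and the members of the gene lists that are reported, 45 had a genotype effect that differed between suspended and attached cells by the z-test of the difference, 37 more negative and 8 more positive in suspension. Values are suspended minus attached log2 folds of JNK-deficient over control. Of the genes named for their size, the difference was 3.51 for R3hdm2, -4.68 for Dtx3, -4.40 for Cxcl3, -3.68 for Calcb, -2.36 for Cd40, -2.76 for Ddx5, -3.62 for Setd4 and -2.95 for Tnip3. It was 2.03 for Ptgr1, 1.04 for the connexin gene Gja1, 1.01 for Eml1 and 0.99 for Rasa3.

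Genes of the interferon response were at -2.06 for Rsad2, -1.75 for Usp18, -1.79 for Oasl2, -1.46 for Oas1a, -1.72 for Rtp4, -1.51 for Ifi44, -1.39 for Cmpk2, -1.02 for Gbp3, -0.98 for Irf7, -0.63 for Ifit2 and -0.63 for Ifit3. The class I light chain gene B2m was at -0.75. Inflammatory genes were at -2.43 for Icam1, -1.89 for Vcam1, -0.95 for Nfkbia, -2.42 for Ccl20, -0.96 for the TNF receptor gene Tnfrsf1b and -2.32 for the prostaglandin receptor gene Ptger3.

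Metabolic and stress genes were at -1.20 for Insig1, -1.08 for Pfkfb3, -1.09 for Herpud1, -1.0 for Bnip3, -0.60 for Ddit4, -1.47 for Rragd, -1.24 for the retinal reductase gene Dhrs3, 0.65 for Srxn1 and -0.79 for the entry of Slc7a11 and AK089283. Matrix, cytoskeleton and growth genes were at -3.40 for Acta2, -1.83 for the fibrillin gene Fbn1, 1.69 for Itgb8, -0.69 for Itgb3, 0.62 for Cited2 and -1.76 for the cyclin gene Ccnd2. With standard errors taken through the suspension tables, 25 of the 45 no longer passed, among them R3hdm2 (adjusted p = 0.173), Cd40 (0.0602), Ddx5 (0.557), Tnip3 (1), Ptgr1 (0.689), Eml1 (0.672) and Rasa3 (0.963).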

How the results depend on the processing

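The number of genes differing in suspended cells stayed within 1.5 times of 1550 under each alternative except a stricter q. At q below 0.01, 954 genes differed, 434 higher and 520 lower. The count of genes at least 2-fold lower, 365 as reported, was 167 with at least 5 FPKM in either group, 222 with at least 1 FPKM in both and 206 with a pseudocount of 1 FPKM, which leave out or shrink genes of low level. No named gene's call changed direction, but the balance of calls did at 5 FPKM or more in either group, with 630 higher and 602 lower. With the GC and length trend removed, 1327 of 1482 calls remained in the same direction and 0 were opposite, and of the genes named Nlrc5, Rps27, Rpl35a, Rps29, Uqcrb, Uqcrh and Atp5l no longer passed while Rasa3 did. A pseudocount of 1 FPKM moved 20 named folds and left 169 within 1 standard error. Centring on the median kept 1508 of 1543 calls and every named gene's call. The difference of effects passed for 112 genes at 5 FPKM or more. No paired analysis was possible because the tables hold 1 value per group; leaving out samples was not run for the same reason.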

Other observations

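A few genes outside the naming rule, which leaves out entries with several symbols, stood out and were chosen after their values were seen. The entry shared by 9430076C15Rik,Creb5, of which Creb5 encodes a CRE-binding factor related to Atf2, stood at 14.03 FPKM in suspended controls against 0.784 FPKM without JNK by the authors' deposited table (-4.16, q = 0.00099), and at -4.28 in attached cells. Hspb1, which encodes a small heat shock protein, was at 76.9 and 13.6 FPKM (-2.50, q = 0.00099). Of the 15 heat shock genes tested, only Hspb1 fell and only Dnajb1 rose (0.44, q = 0.0261), a share of 13.3% against 12.6% of all genes. The Notch ligand gene Jag2 was at 0.366 and 1.72 FPKM (2.24, q = 0.00182), and passed the FPKM threshold through the JNK-deficient group alone. The Notch target Hes1 was at 5.19 and 11.9 FPKM (1.20, q = 0.00099). Jag2 and Hes1 were the 2 of 10 Notch genes that passed (20%, against 12.6% of all genes). Among retinoic acid genes, Aldh1a3 fell from 23.3 to 7.64 FPKM (-1.61, q = 0.00099) while Aldh1a1 and Aldh1a2 (0.90, q = 0.00099) rose.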
